A study of Mus musculus with 18 samples.

Results

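The genes described here build the replication fork and make its nucleotides: DNA polymerases and primase, the PCNA clamp and its loader, the GINS complex, the single-strand binding protein RPA, origin factors, and enzymes of deoxynucleotide synthesis. The list names 38 genes. Of these, 37 have at least 1 probe set that names no other gene (73 probe sets), and 34 passed a filter on low signal, out of 12793 genes that did so on the whole array. Chaf1a had no such probe set and is not analysed here, while Pole, Tyms and Dscc1 lay below the filter and are given separately. The study hybridised total RNA of 9 TRAMP tumours and of 9 normal prostates, 1 Affymetrix array per sample. TRAMP (Transgenic Adenocarcinoma of the Mouse Prostate) mice carry the SV40 early region under a probasin promoter, which is active in prostate epithelium. The normal samples held ventral and dorsolateral lobes, per the labels. Strain, age and the number of animals behind each sample are not given in the sources used here, and a p-value here speaks only of the spread among the arrays, part of which may be technical. Values are log2(signal + 16) of the authors' MAS5 signal, on which a fold change understates the change of low genes. A gene counts as dim on an array where it lies below the 40th percentile of that array (log2 6.91 to 7.41).

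When a cell enters S phase, the kinase pair Cdc7 and Dbf4 fires licensed origins and Cdc45 and GINS join the MCM ring to form the helicase. Primase and polymerase alpha lay primers, the RFC complex loads PCNA, and polymerases delta and epsilon extend the strands. Many of these genes are targets of E2F factors, which RB family proteins hold in check, and the SV40 large T antigen binds RB proteins. Adult prostate epithelium divides slowly, so such genes are normally low in it.

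The promoter letters of the list are shown first, because most of its genes moved the same way. Windows reaching 250 bases before and 50 bases after the start of the gene came from RefSeq (GRCm38.p6), and 30 of the 38 genes were matched in the table used. The E2F letters TTCCCGC or TTGGCGC, on either strand, stood in 14 of these 30 windows (46.7%), against 6.93% of 27025 windows of all genes. The share was 47.8% of 23 windows of other fork and chromatin assembly genes, 58.3% of 12 of MCM and licensing genes and 37.5% of 8 of repair polymerases, so it is not particular to the list. It was 23.1% of 26 windows of other nucleotide synthesis genes and 10% of 10 of mitochondrial DNA replication genes. CCAAT, the letters of the NF-Y box, stood in 17 of 30 (56.7%), against 37.9% of all windows. TTTGAA, the letters of the CHR element of mitotic genes, stood in 6 of 30 (20%), against 18.1%. The 9 windows with both E2F letters and CCAAT made up 30% of the list, against 2.85% of all windows. That share was 33.3% for MCM and licensing genes and 17.4% for other fork and chromatin assembly genes. Any overlap of the motifs was allowed. Such a match describes letters and does not show binding.

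The 7 windows printed here show the range within the list, from 4 E2F matches in Pola1 to none in Pcna and Top2a. Capitals mark the letters of the 3 motifs on either strand, and where motifs overlap they form 1 run.
Pola1, chrX:93632106-93632405, minus strand: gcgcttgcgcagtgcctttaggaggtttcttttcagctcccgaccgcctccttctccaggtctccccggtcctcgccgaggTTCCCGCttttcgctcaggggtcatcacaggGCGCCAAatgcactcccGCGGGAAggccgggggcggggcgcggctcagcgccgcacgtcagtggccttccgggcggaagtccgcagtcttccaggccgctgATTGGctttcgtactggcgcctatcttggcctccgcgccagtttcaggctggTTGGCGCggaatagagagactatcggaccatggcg
Prim1, chr10:128014965-128015264, plus strand: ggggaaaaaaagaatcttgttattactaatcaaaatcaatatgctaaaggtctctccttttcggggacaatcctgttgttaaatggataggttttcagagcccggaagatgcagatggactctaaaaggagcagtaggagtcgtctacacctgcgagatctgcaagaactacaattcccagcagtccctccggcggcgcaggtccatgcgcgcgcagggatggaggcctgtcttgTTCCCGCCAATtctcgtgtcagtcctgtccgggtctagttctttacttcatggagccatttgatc
Chaf1b, chr16:93883651-93883950, plus strand: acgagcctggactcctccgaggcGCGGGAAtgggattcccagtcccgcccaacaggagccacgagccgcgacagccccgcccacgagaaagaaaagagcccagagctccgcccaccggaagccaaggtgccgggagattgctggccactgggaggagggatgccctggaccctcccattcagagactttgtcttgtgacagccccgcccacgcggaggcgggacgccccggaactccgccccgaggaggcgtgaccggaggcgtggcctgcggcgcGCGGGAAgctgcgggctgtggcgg
Rrm1, chr7:102441445-102441744, plus strand: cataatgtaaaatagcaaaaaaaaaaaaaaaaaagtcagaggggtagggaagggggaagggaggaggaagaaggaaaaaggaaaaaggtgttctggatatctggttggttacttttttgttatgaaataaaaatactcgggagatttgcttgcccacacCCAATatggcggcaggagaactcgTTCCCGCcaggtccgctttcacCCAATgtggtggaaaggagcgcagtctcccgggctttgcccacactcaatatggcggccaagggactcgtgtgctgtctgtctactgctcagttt
Rpa2, chr4:132768110-132768409, plus strand: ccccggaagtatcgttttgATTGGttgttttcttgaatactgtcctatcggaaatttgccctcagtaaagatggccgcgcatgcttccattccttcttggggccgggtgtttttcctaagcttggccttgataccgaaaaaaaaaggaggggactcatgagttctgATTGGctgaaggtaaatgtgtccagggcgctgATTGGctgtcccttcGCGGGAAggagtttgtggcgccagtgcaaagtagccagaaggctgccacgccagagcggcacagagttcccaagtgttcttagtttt
Pcna, chr2:132253131-132253430, minus strand: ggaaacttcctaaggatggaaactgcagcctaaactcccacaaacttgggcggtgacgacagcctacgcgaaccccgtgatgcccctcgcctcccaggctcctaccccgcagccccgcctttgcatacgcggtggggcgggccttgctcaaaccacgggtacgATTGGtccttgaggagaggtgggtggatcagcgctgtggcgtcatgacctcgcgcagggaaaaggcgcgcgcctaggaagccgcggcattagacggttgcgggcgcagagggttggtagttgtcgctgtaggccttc
Top2a, chr11:99024140-99024439, minus strand: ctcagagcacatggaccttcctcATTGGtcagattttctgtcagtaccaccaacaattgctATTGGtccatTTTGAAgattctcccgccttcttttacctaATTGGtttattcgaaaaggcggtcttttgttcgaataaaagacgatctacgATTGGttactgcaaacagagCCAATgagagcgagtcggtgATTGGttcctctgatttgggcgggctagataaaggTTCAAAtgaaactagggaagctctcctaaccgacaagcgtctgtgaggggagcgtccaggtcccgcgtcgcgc

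Pola1 has E2F letters at positions -169, -138, -121 and 16, counted from the start of the gene. In Prim1 the E2F letters at -15 run into the CCAAT letters at -9. Top2a carries CCAAT in 6 places and TTTGAA in 2, without E2F letters. Genes with and without E2F letters are both found among those that rose: Tk1, Dut, Lig1, Rfc5 and Pola2 had none of the 3 motifs in the windows used.

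The design asks how TRAMP tumours differ from normal prostate. Replication fork and nucleotide genes were mostly higher in tumours. Of the 34 measured genes 29 rose (85.3%) and 0 fell at a limma adjusted p under 0.05 over all 12793 genes, where 11.3% of all genes rose and 12.7% fell. Scaling shifted the balance over all genes: 774 rose and 2417 fell when arrays were centred on housekeeping genes, and 1123 and 2057 when centred on their 75th percentile, against 1444 and 1623 as reported. Of the list 26 rose with the first centring (6.05% of all genes) and 28 with the second (8.78%). Quantile normalization gave 28 (9.81%), the replicate number as a term 28 (9.5%), and the actin 3' to 5' ratio as a covariate 25 (5.98%). That ratio, a sign of RNA quality, was 0.46 to 2.18 (log2, median 0.95) in tumours and 0.31 to 2.48 (median 1.71) in normal prostate. Against a change of at least 2-fold, Pcna and Prim1 alone passed (2 of 34, against 0.555% of all genes). The median log2 fold change was 1.74 for the list and -0.01 for all genes. By 2-fold or more rose 26 of them, against 5.27% of all genes, and 13 rose by 4-fold or more, against 1.3% of all genes. Every tumour lay above every normal prostate for 9 of the 34, against 1.45% of all genes. In whole tissue, more dividing cells and more RNA per cell cannot be told apart.

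**Figure D1:**
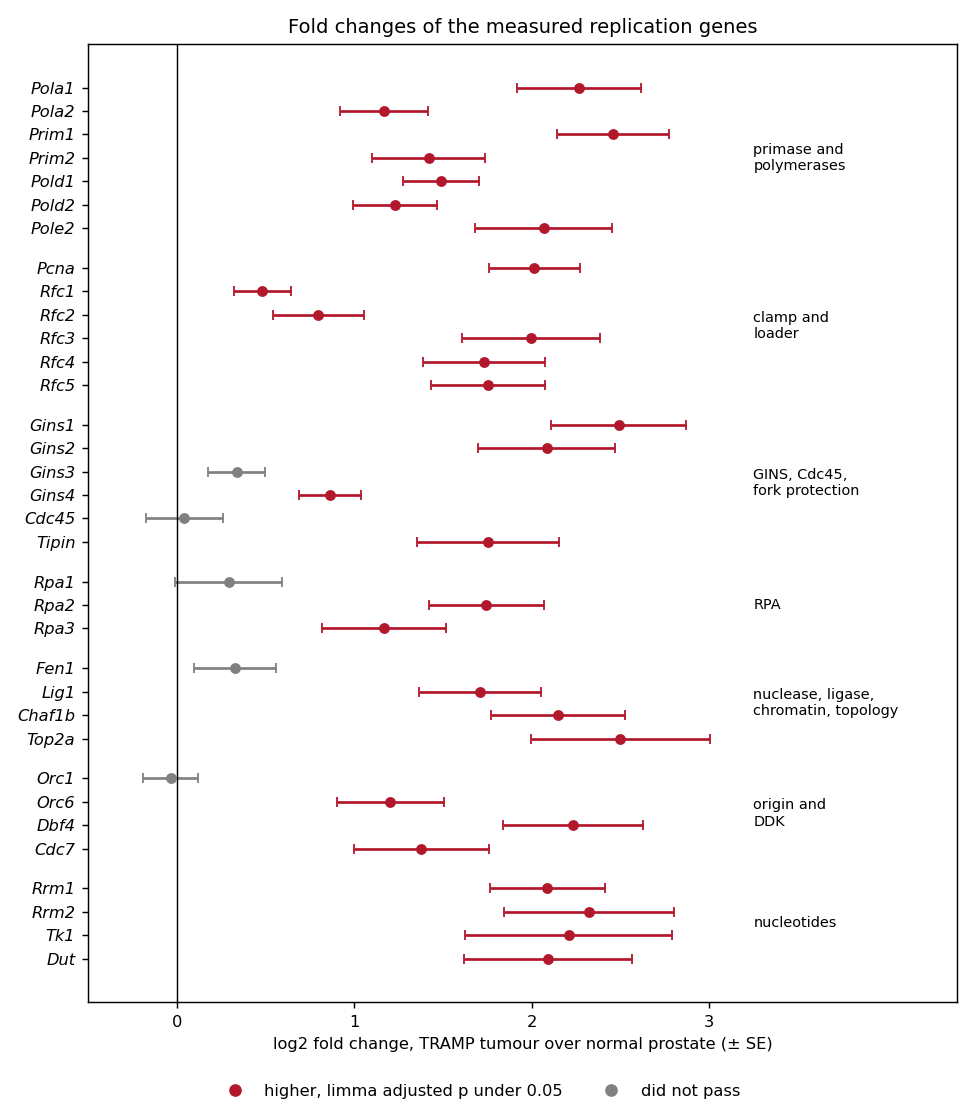
Log2 fold change (x axis, ± SE) of each of the 34 measured genes, TRAMP tumour over normal prostate, n = 9 each, grouped by role. The 29 genes that rose are red, at 0.48 to 2.50; the 5 grey genes that did not pass lie between -0.03 and 0.34.

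Primase and the replicative polymerases were higher in 7 of 7 measured cases, where 11.3% of all genes rose. Prim1, the catalytic primase subunit, measured 10.16 to 12.63 in tumours (median 11.72), against 8.47 to 9.79 in normal prostate (median 8.95). Its lowest tumour thus lay above its highest normal sample, and it rose by 2.46 ± 0.31 SE (limma adjusted p = 6.65e-05), a 5.50-fold difference. The second of its probe sets gave 2.77. Prim2, the large primase subunit, rose by 1.42 ± 0.32 SE (limma adjusted p = 0.00390).

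Pola1, the catalytic subunit of polymerase alpha, rose by 2.27 ± 0.35 SE, and its accessory subunit Pola2 by 1.17 ± 0.25 SE. Another kept Pola2 probe set differed by 0.43 and did not pass (limma adjusted p = 0.331 over all probe sets). The highest normal value of Pola1, 9.25 in normal prostate 9, stood above the lowest tumours, so its groups overlapped. Pold1, the catalytic subunit of polymerase delta, measured 8.998 to 10.73 in tumours (median 9.74) and 8.02 to 8.59 in normal prostate (median 8.11). All 9 tumours were above all normal samples, with a rise of 1.49 ± 0.21 SE (limma adjusted p = 0.000152). The polymerase delta subunit Pold2 also kept its groups apart and rose by 1.23 ± 0.24 SE. Pole2, a subunit of polymerase epsilon, rose by 2.07 ± 0.39 SE (limma adjusted p = 0.00111).

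Pole encodes the catalytic subunit of polymerase epsilon, which extends the leading strand. It failed the filter because it was dim on all 9 normal arrays and on tumour 5. It measured 6.95 to 11.63 in tumours (median 10.27) and 4.66 to 6.29 in normal prostate (median 5.03). The groups did not overlap. Against the 40th percentile of the normal arrays the tumour mean was at least 5.07-fold higher. Without the filter, limma gave an adjusted p of 8.37e-05 over 18193 genes, 7.89% of which rose. Dscc1, part of an alternative PCNA loader, was likewise dim on all 9 normal arrays, and on 2 tumours. Its tumour mean exceeded that bound at least 3.06-fold (adjusted p = 0.000516 by limma without the filter), though the groups overlapped. The filter therefore left out genes with large differences.

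The sliding clamp and its loader moved to different degrees. Pcna, the clamp that tethers polymerases to DNA, measured 12.19 to 14.21 in tumours (median 13.28), against 10.90 to 11.58 in normal prostate (median 11.12). Its groups were fully apart, and it rose by 2.02 ± 0.26 SE, or 4.04-fold (limma adjusted p = 6.38e-05), the lowest adjusted p of the list. The small loader subunits Rfc3, Rfc4 and Rfc5 rose by 1.997 ± 0.39 SE, 1.73 ± 0.34 SE and 1.75 ± 0.32 SE. Rfc1, the large subunit, differed by 0.48 ± 0.16 SE (limma adjusted p = 0.0359), and the small subunit Rfc2 by 0.80 ± 0.26 SE (limma adjusted p = 0.0309).

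The calls of Rfc1 and Rfc2 were not firm. Rfc1 lost its call when any 1 of tumours 2, 6, 8 or 9 or normal prostates 1, 2, 5, 6 or 9 was left out, with adjusted p-values of 0.0503 to 0.0648 and differences of 0.41 to 0.49. Rfc2 lost its call without tumour 1, 6, 8 or 9 or normal prostate 1 or 4, with adjusted p-values of 0.0518 to 0.0609 and differences of 0.70 to 0.78. Of the 3 probe sets of Rfc1, only the brightest passed when every probe set was tested. The other probe sets of Rfc2 differed by 1.03, which passed (limma adjusted p = 0.00790 over all probe sets), and by 0.88, which did not (0.0520).

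The genes of the helicase cofactors split. Gins1 measured 7.42 to 10.72 in tumours (median 9.13) and 5.62 to 7.35 in normal prostate (median 6.82). No tumour overlapped the normal samples, and the difference was 2.49 ± 0.38 SE (limma adjusted p = 0.000239). With values raised to the 40th percentile, since 8 of 9 normal arrays were dim, it was 1.985. Gins2 rose by 2.085 ± 0.38 SE and Gins4 by 0.86 ± 0.17 SE. Gins3 measured 8.06 ± 0.33 in tumours and 7.73 ± 0.33 in normal prostate (SD, n = 9 each) and did not pass (limma adjusted p = 0.138). Without tumours 3, 5 and 7 and normal prostate 9, which were dim in Hoxb13, Gins3 passed at 0.58 (limma adjusted p = 0.0116). Those tumours were its lowest and normal prostate 9 its highest normal sample, so leaving them out widens the difference by itself. The other kept Gins3 probe set differed by 0.008 and did not pass (limma adjusted p = 0.981 over all probe sets). Tipin, which protects stalled forks, rose by 1.75 ± 0.40 SE (limma adjusted p = 0.00443).

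Cdc45 gave different answers by probe set. The probe set that passed the filter measured 7.26 to 9.34 in tumours (median 8.54) and 7.95 to 8.89 in normal prostate (median 8.34), with a difference of 0.04 ± 0.22 SE (limma adjusted p = 0.909). The groups overlapped throughout. The other probe set of Cdc45, below the filter, measured 8.88 ± 1.34 in tumours and 5.595 ± 0.84 in normal prostate (SD, n = 9 each). It was dim on all 9 normal arrays and 1 tumour, so its tumour mean was at least 3.38-fold higher. Which of them follows the Cdc45 messenger was not tested.

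RPA, which coats single-stranded DNA, has 3 subunits. Rpa2 rose by 1.75 ± 0.32 SE and Rpa3 by 1.17 ± 0.35 SE (limma adjusted p = 0.00107 and 0.0215). Rpa3 lost its call with housekeeping centring (limma adjusted p = 0.054) and with the actin ratio as a covariate (0.107). Rpa1, the large DNA-binding subunit, measured 11.26 to 13.69 in tumours (median 12.83) and 11.26 to 12.95 in normal prostate (median 12.26). These ranges overlapped almost fully and Rpa1 did not pass (difference 0.29 ± 0.30 SE, limma adjusted p = 0.511). Without tumours 3, 5 and 7 and normal prostate 9 it passed, at 0.65 (limma adjusted p = 0.0361). Those tumours were the lowest for Rpa1, so leaving them out raises its tumour mean by itself. Normal prostate 9 was its lowest normal sample, which works the other way.

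Genes that process and package the new strands were mostly higher. Lig1, which seals Okazaki fragments, rose by 1.71 ± 0.34 SE (limma adjusted p = 0.00193). Chaf1b, a subunit of the CAF-1 histone chaperone, measured 7.91 to 10.66 in tumours (median 9.86), against 6.13 to 7.53 in normal prostate (median 7.18). Its groups were apart, with a rise of 2.15 ± 0.38 SE (limma adjusted p = 0.000727). Top2a, the topoisomerase that untangles replicated DNA, measured 9.64 to 13.56 in tumours (median 11.11) and 7.92 to 10.09 in normal prostate (median 9.09). Of the 9 tumours 8 exceeded the highest normal sample, and Top2a had the largest rise among the 34 genes, 2.50 ± 0.50 SE (limma adjusted p = 0.00193). Gins1 at 2.49 and Prim1 at 2.46 lay well within that SE, so the rank is not firm. Another kept Top2a probe set rose by 1.57 (limma adjusted p = 0.0118 over all probe sets).

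Fen1, the flap nuclease that trims Okazaki fragments, did not pass. It measured 9.90 to 11.08 in tumours (median 10.61) and 9.52 to 10.99 in normal prostate (median 10.59), a difference of 0.33 ± 0.23 SE (limma adjusted p = 0.315). That probe set is of a kind that can match several transcripts, as are those used for Rrm2 and Gins2, which rose. The other Fen1 probe set differed by 0.71 and did not pass either (limma adjusted p = 0.102 over all probe sets).

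**Figure D2:**
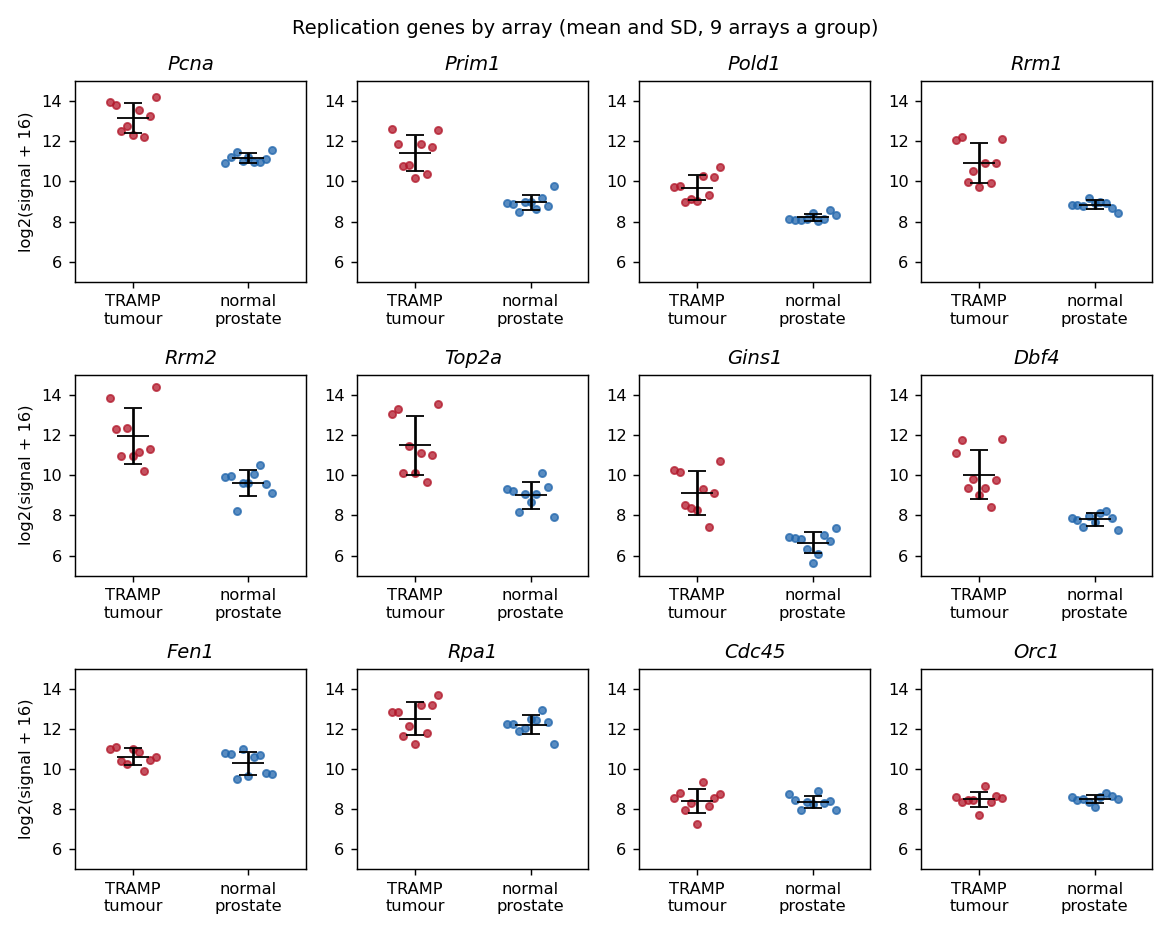
Log2(signal + 16) (y axis) of 12 genes on each of 9 TRAMP tumour arrays (red, left) and 9 normal prostate arrays (blue, right), with mean and SD in black. In the upper rows tumours lie above or mostly above normal samples, as for Pcna at 12.19 to 14.21 against 10.90 to 11.58; in the bottom row Fen1, Rpa1, Cdc45 and Orc1 overlap.

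Of the 4 measured origin factors of the list, the firing kinase subunit Dbf4 changed most. It measured 8.39 to 11.79 in tumours (median 9.74) and 7.25 to 8.22 in normal prostate (median 7.86). The groups were apart and the rise was 2.23 ± 0.39 SE, or 4.70-fold (limma adjusted p = 0.000759). Its kinase partner Cdc7 rose by 1.38 ± 0.38 SE (limma adjusted p = 0.0136), and Orc6, of the origin recognition complex, by 1.20 ± 0.30 SE (limma adjusted p = 0.00763). The other kept Cdc7 probe set differed by 0.45 and did not pass (limma adjusted p = 0.180 over all probe sets), and within the arrays with bright spike controls, described further on, the Cdc7 call was lost (limma adjusted p = 0.108). Orc1, the subunit with cell cycle regulated levels in mammals, measured 8.48 ± 0.38 in tumours and 8.52 ± 0.21 in normal prostate (SD, n = 9 each; limma adjusted p = 0.895). A dimmer Orc1 probe set measured 7.93 ± 0.72 in tumours and 6.96 ± 0.76 in normal prostate and passed when every probe set was tested (limma adjusted p = 0.0433). Orc2, Orc3, Orc4 and Orc5, singled out after their values were seen, differed by 0.15, 0.37, -0.10 and 0.26, and none passed.

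Deoxynucleotide enzymes of the list rose in 4 of 4 measured cases, where 11.3% of all genes rose. Rrm1, the large subunit of ribonucleotide reductase, measured 9.72 to 12.20 in tumours (median 10.92), against 8.40 to 9.20 in normal prostate (median 8.84). Its groups were apart, with a rise of 2.09 ± 0.32 SE (limma adjusted p = 0.000265). A dimmer kept Rrm1 probe set rose by 1.46 (limma adjusted p = 0.00162 over all probe sets). Rrm2, the S-phase small subunit, measured 10.21 to 14.37 in tumours (median 11.32) and 8.23 to 10.49 in normal prostate (median 9.61). All but 1 tumour exceeded every normal sample, and the rise was 2.32 ± 0.48 SE (limma adjusted p = 0.00231). The 3 probe sets of Rrm2 gave 2.32, 2.37 and 2.41.

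Dut, which removes dUTP before it can enter DNA, rose by 2.09 ± 0.47 SE (limma adjusted p = 0.00418). A dimmer Dut probe set differed by 0.83 and did not pass (limma adjusted p = 0.166 over all probe sets). Tk1, the cytosolic thymidine kinase, rose by 2.21 ± 0.58 SE (limma adjusted p = 0.0105) and was dim on 4 normal arrays and 1 tumour. Tyms, the thymidylate synthase, had 4 single-gene probe sets, each below the filter. They gave no single answer. The one with the highest tumour mean measured 7.998 ± 1.03 in tumours and 5.69 ± 0.88 in normal prostate (SD, n = 9 each). It was dim on all 9 normal arrays and on 2 tumours, so its tumour mean was at least 1.84-fold higher. The Tyms probe set with the highest normal mean differed by 0.11 and did not pass without the filter (limma adjusted p = 0.816).

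Across the 73 probe sets of the list, 56 passed the filter. Tested one by one, a choice made after seeing the data, 42 rose, 0 fell and 14 did not pass, where 10.1% of all 27292 kept probe sets rose and 9.48% fell.

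The tumours differed from each other more than the normal samples did. The SD over arrays was larger in tumours for 33 of 34 genes, with a median SD of 0.94 in tumours and 0.33 in normal prostate. Over all genes 74.4% had the larger SD in tumours, with medians of 0.51 in tumours and 0.37 in normal prostate. The widest spread in tumours belonged to Dut (1.51), Tk1 (1.498), Top2a (1.48) and Rrm2 (1.40).

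Some tumours were the highest or the lowest for many genes of the list. Tumour 9 was the highest tumour for 21 of 34 genes, while tumours 5 and 7 were the lowest for 14 each. The order changed between genes: tumour 6 was the highest tumour for Pola2, Cdc45 and Orc1 and the lowest for Rpa3. The mean over the 34 genes was 11.29 in tumour 9, 10.93 in tumour 1 and 10.87 in tumour 2. It was 10.31 and 10.30 in tumours 8 and 6 and 9.68 in tumour 4. Tumours 3, 7 and 5 followed at 9.38, 9.11 and 9.10, while normal samples ranged from 8.38 to 8.81. Mki67, a marker of dividing cells outside the list, was 13.67, 13.27 and 13.19 in tumours 9, 2 and 1 and 10.59, 10.15 and 9.74 in tumours 3, 5 and 7, against 5.19 to 9.01 in normal prostate.

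**Figure D3:**
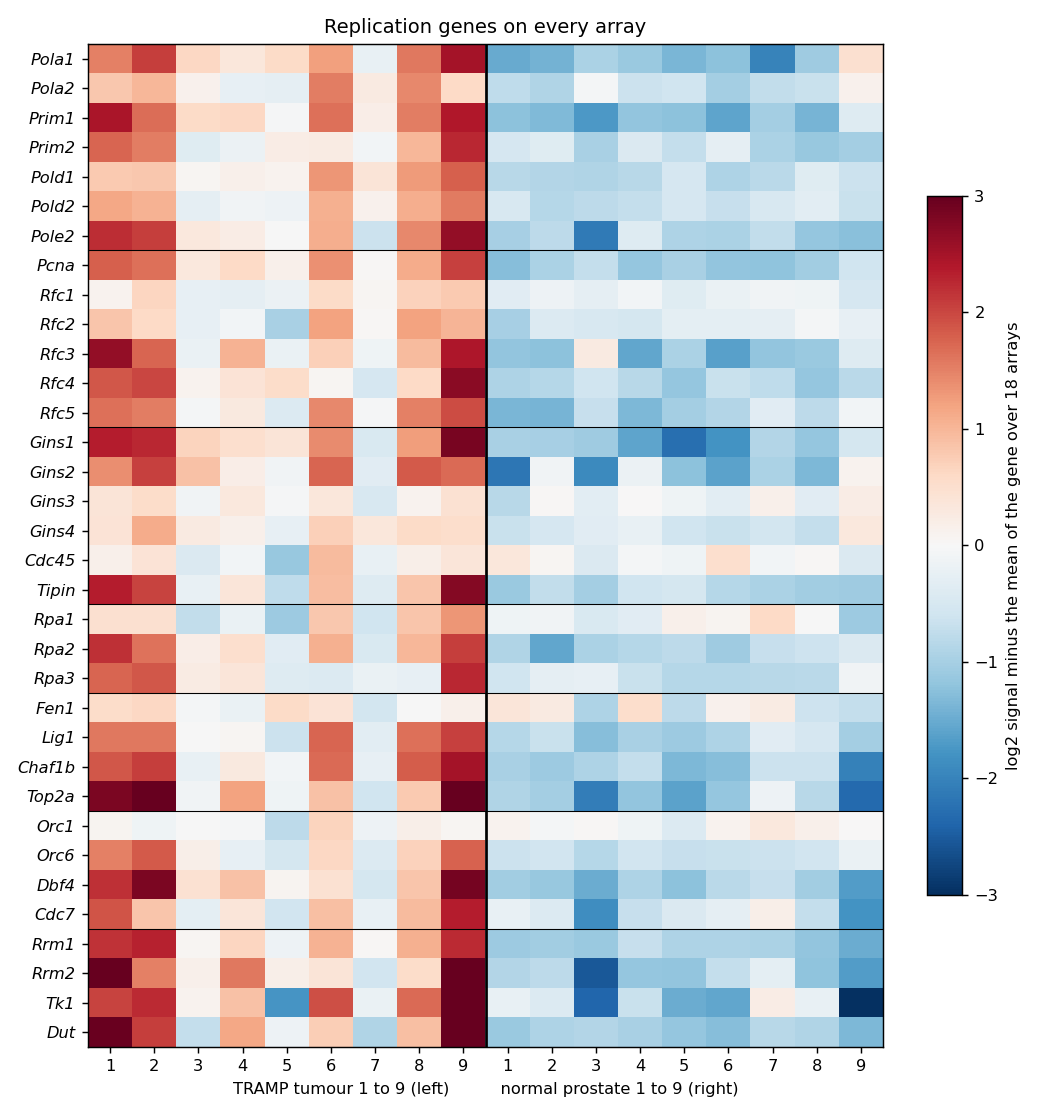
Each row is 1 of the 34 genes and each column 1 array, TRAMP tumours 1 to 9 on the left and normal prostates 1 to 9 on the right. Colour gives the log2 signal minus the mean of the gene over 18 arrays, with the scale ending at 3 and -3; tumours 1, 2 and 9 are the reddest columns, and tumours 3, 5 and 7 the palest among tumours.

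Markers of other tissue differed among the tumours and followed this order only in part. Hoxb13, a gene of prostate epithelium, was dim in tumours 3, 5 and 7 (4.26 to 4.401) and in normal prostate 9 (4.50), and Pbsn, the probasin gene, was dim in every tumour. The luminal keratin genes Krt8 and Krt18 went another way. Both were lowest in tumour 9 (7.72 and 7.05), where Hoxb13 was highest among tumours (12.15), and Krt8 was highest in tumour 5 (14.04). Of 4 luminal markers 3 passed the filter, 0 rose and 1 fell, with summed log2 signals of 12.2 to 15.36 in tumours and 14.18 to 16.05 in normal prostate. The seminal vesicle gene Svs4 was 15.29, 15.59 and 15.43 in tumours 3, 5 and 7 and 12.50 in normal prostate 9. It was also 14.15 and 14.07 in tumours 6 and 8, which lay above tumour 4 (Svs4 at 10.70) in the mean of the list. Of 6 seminal vesicle markers 3 passed the filter and 1 rose, with summed log2 signals of 7.57 to 18.16 in tumours and 8.41 to 16.69 in normal prostate. Chga, a neuroendocrine marker, was highest in tumours 9, 1 and 4, at 12.24, 11.50 and 9.996. Of 5 neuroendocrine markers 1 passed the filter and 0 rose, with summed log2 signals of 7.33 to 14.27 in tumours and 8.21 to 9.31 in normal prostate. Tumour 2, among the highest in the list, had Chga at 7.19 and Hoxb13 at 7.37. The part of these markers in the result was not tested.

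Fat markers differed between the groups. All 4 measured adipocyte markers fell, with log2 differences of -3.05 (Retn) to -5.46 (Adipoq, which averaged 6.77 ± 2.13 in tumours and 12.23 ± 2.38 in normal prostate, SD, n = 9 each). The 5 adipocyte markers with a probe set summed to 8.93 to 14.34 (log2) in tumours and 8.90 to 16.43 in normal prostate, with Lep dim in every tumour. Of 3 measured urothelial markers Upk1a alone passed and fell by 2.48 ± 0.68 SE; the 4 with a probe set summed to 9.49 to 15.76 in tumours and 10.27 to 15.97 in normal prostate. Their part in the result was not tested.

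Lymphocytes can also divide, and their 6 markers summed to 8.11 to 9.54 (log2) in tumours and 8.55 to 9.66 in normal prostate. Among them Cd2 was dim on all 18 arrays and Cd3e and Cd79b in every tumour. Of 5 macrophage markers 2 rose, with sums of 11.72 to 14.65 in tumours and 10.47 to 12.72 in normal prostate, and their part was not tested.

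Without tumours 3, 5 and 7 and normal prostate 9, 31 of 34 genes rose, against 14.1% of all genes. In those arrays every tumour lay above every normal prostate for 25 of the 34, a count added after seeing the data, against 4.75% of all genes. The omitted tumours are also those lowest in the list, so the choice of arrays itself favours larger counts. Normal prostate 9 was the highest normal sample for 12 of the 34 genes and the lowest for 9.

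The poly-A spike control probe sets were bright on tumours 1 to 5 and normal prostates 1 to 6 (log2 8.66 to 10.75) and dim on the other arrays (4.91 to 5.27). With this split as a term 29 genes rose, against 11.8% of all genes. Within the bright arrays 22 of 34 rose, against 7.65% of all genes, and the median difference was 1.64. Within the dim arrays, 4 tumours against 3 normal prostates, limma called 0 genes of the list and 0 of all genes (0%). There 26 of 34 were higher at an unadjusted p under 0.05, against 6.69% of all genes. All 34 differences were above 0, as were 48.1% of those of all genes, and the median of the list was 1.84. Calls of Rfc1, Rfc2, Prim2, Tk1, Tipin, Orc6 and Cdc7 were lost within the bright arrays.

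Paralogues and partner subunits were compared next, to see whether replication forms changed more than their relatives. The measure was the difference between the log2 values of a pair on each array, tested by an exact two-sided permutation test over all 48620 splits of the arrays. Of 9 measured pairs 8 differed at a Benjamini-Hochberg adjusted p under 0.05 over the 9. The first gene of every pair had risen, by 1.49 to 2.50, where the median of all genes was -0.01. Many unrelated genes set against it could therefore differ as well, and the share that would was not computed. The pairs were also chosen with earlier results known. The count thus does not set these relatives apart from other genes. The difference shows unequal change within a pair and sets no level of one gene against the other.

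Rrm2b, a small ribonucleotide reductase subunit that p53 induces, fell by 0.84 ± 0.14 SE in tumours (limma adjusted p = 0.000654). It measured 10.08 ± 0.22 in tumours and 10.92 ± 0.33 in normal prostate (SD, n = 9 each). Rrm2 against Rrm2b differed by 3.16 ± 0.47 SE, with all 9 tumours above every normal sample (exact permutation adjusted p = 0.000185). The raw p of that pair, 4.1e-05, is the smallest the test can give. Rrm2 against Rrm1, subunits of the same enzyme, differed by 0.23 ± 0.33 SE, and no difference was detectable (exact permutation adjusted p = 0.492). That comparison used the brightest Rrm1 probe set, and a dimmer kept Rrm1 probe set rose by 1.46.

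Polb, the polymerase of base excision repair, fell by 1.001 ± 0.17 SE in tumours (limma adjusted p = 0.000456). Pold1 against Polb differed by 2.49 ± 0.34 SE, again with all 9 tumours above every normal sample (exact permutation adjusted p = 0.000185). Top2b, the form also made in non-dividing cells, differed by 0.13 ± 0.18 SE, and Top2a against Top2b by 2.37 ± 0.47 SE (exact permutation adjusted p = 0.000648). Tk2, the mitochondrial thymidine kinase, differed by -0.66 ± 0.25 SE (limma adjusted p = 0.0578), and Tk1 against Tk2 by 2.87 ± 0.78 SE (exact permutation adjusted p = 0.00307).

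Lig4, the ligase of end joining, differed by -0.22 ± 0.21 SE, and Lig1 against Lig4 by 1.93 ± 0.42 SE (exact permutation adjusted p = 0.000666). Lig3 encodes the ligase of mitochondria and single-strand break repair. Lig1 against Lig3 differed by 1.24 ± 0.51 SE (exact permutation adjusted p = 0.0295). That call was lost without tumour 1, 2, 6, 8 or 9, with adjusted p-values of 0.0590 to 0.0614 and differences of 1.06 to 1.12. Within complexes, Rfc4 against Rfc1 differed by 1.25 ± 0.32 SE (exact permutation adjusted p = 0.00130) and Rpa2 against Rpa1 by 1.45 ± 0.27 SE (exact permutation adjusted p = 0.000494). Pole against Polg, the mitochondrial polymerase, is not given because Pole was dim on all 9 normal arrays.

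**Figure D4:**
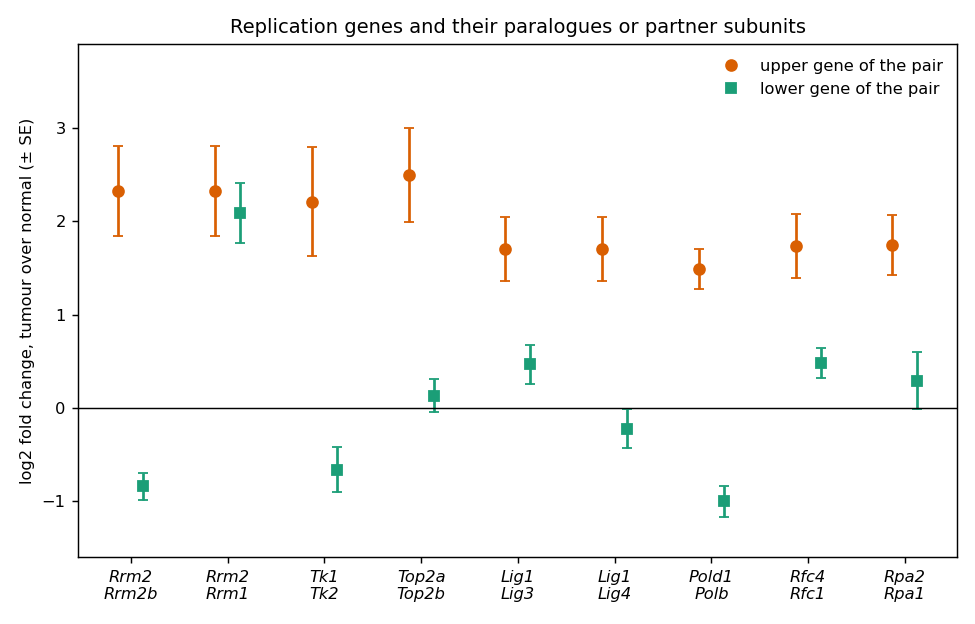
Log2 fold changes (y axis, ± SE), TRAMP tumour over normal prostate, n = 9 each, for the upper gene (orange circle) and lower gene (green square) of 9 pairs. The circles lie at 1.49 to 2.50; of the squares only Rrm1 (2.09) lies near its partner, while Rrm2b (-0.84) and Polb (-1.001) fell.

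The other genes of DNA replication were read in 5 lists, with the same fit and no test between lists. Their counts stand beside 11.3% of all genes that rose and 12.7% that fell. Of 14 MCM and licensing genes 9 rose and 0 fell; their median was 2.39 (log2 fold change). The MCM subunits Mcm4 and Mcm5 and the licensing factor Cdt1 had the largest t among them. Of 24 other fork and chromatin assembly genes 14 rose and 1 fell, with a median of 0.83. Donson, a replisome assembly factor, rose by 1.25 ± 0.17 SE, Wdhd1, which links polymerase alpha to the helicase, by 2.20 ± 0.35 SE, and Atad5, the PCNA unloader, by 1.90 ± 0.30 SE. The gene that fell was Pold4, the small polymerase delta subunit, at -0.70 ± 0.22 SE (limma adjusted p = 0.0278), named after its value was seen.

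Of 28 other nucleotide synthesis genes 7 rose and 4 fell, and their median was 0.07; the share that fell is near that of all genes. The deoxycytidine kinase gene Dck rose by 2.67 ± 0.44 SE, the thymidylate kinase gene Dtymk by 1.35 ± 0.23 SE and Mthfd2, of mitochondrial folate metabolism, by 2.07 ± 0.35 SE. Those that fell were Rrm2b and, named after their values were seen, Cad, Cmpk1 and Guk1. Cad, which starts pyrimidine synthesis, fell by 1.53 ± 0.34 SE (limma adjusted p = 0.00344). Genes of purine synthesis were singled out after their values were seen. Of these Ppat, Gart, Pfas, Paics, Adsl and Atic differed by 0.04 to 0.42, and none of them passed. Adss rose by 0.72 ± 0.16 SE (limma adjusted p = 0.00411), while Gmps and Impdh1 differed by 0.003 and -0.46 and did not pass.

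Of 10 mitochondrial DNA replication genes 0 rose and 2 fell, few genes to set beside the background, Tfb2m by 0.54 ± 0.15 SE and Dguok, the mitochondrial deoxyguanosine kinase, by 0.61 ± 0.21 SE. The median of these 10 was -0.20. Of 11 repair and translesion polymerase genes 3 rose and 1 fell, with a median of -0.06. Besides Polb, which fell, the translesion genes Polh and Rev1 rose by 0.81 ± 0.22 SE and 0.83 ± 0.23 SE.

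**Figure D5:**
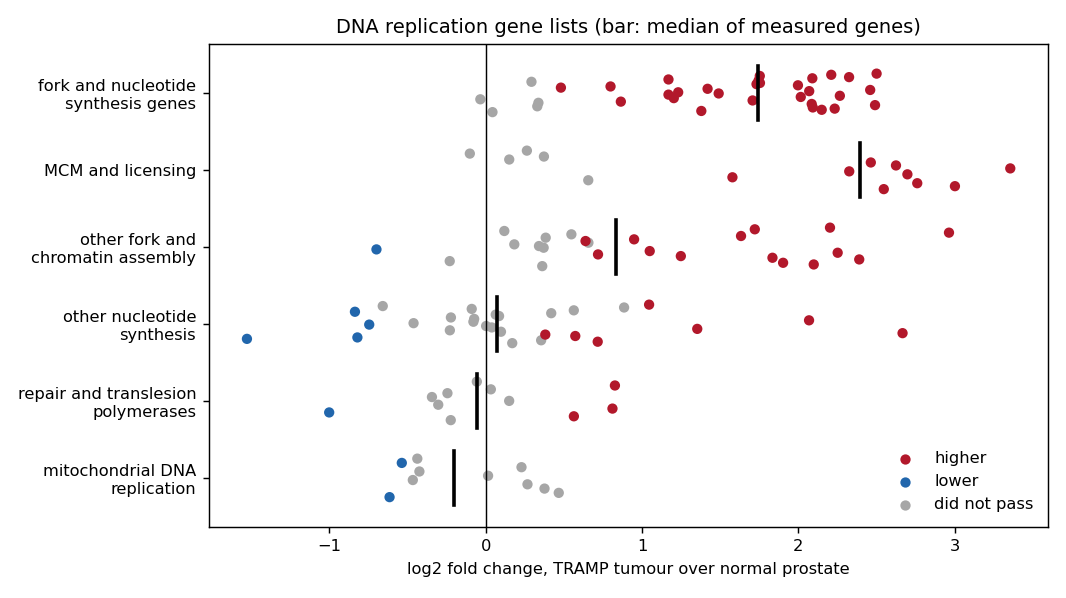
Each point is 1 measured gene, placed by its log2 fold change (x axis), TRAMP tumour over normal prostate, in 6 lists; red rose, blue fell and grey did not pass, and black bars are medians. The medians are 1.74 for the fork and nucleotide synthesis genes, 2.39 for MCM and licensing, 0.83, 0.07 and -0.06 for the next 3 lists and -0.20 for mitochondrial replication.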

How the data were processed

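The intensity values are MAS5 signals that the authors deposited, 1 value per probe set and array, with MAS5 named in the submitters' processing notes and no version given there. The 2% trimmed mean averaged 500 over the 18 arrays, and its values on single arrays are not given here. Of 45101 probe sets 34945 name 1 gene in the platform table, 932 name several and 64 are controls; Entrez identifiers of 34741 matched a GRCm38.p6 gene table, used for names.

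No normalization was added before taking log2(signal + 16). Probe sets above the 40th percentile of their array on at least 9 of 18 arrays were kept (27292), and for each of 12793 genes the brightest of these that names no other gene stood for it. limma 3.58.1 in R 4.3.3 (lmFit, eBayes, group only) tested each gene, two-sided, with Benjamini-Hochberg adjustment over all genes; limma and the permutation code were tested on simulated data. Pairs of genes were tested by exact permutation. Named genes were all members, the pair genes, Mki67 and the 3 or fewer of each list that were largest in absolute t; other genes are marked in the text. Members, lists and tests were chosen with earlier results of these data known. Alternatives changed the pseudocount (1, 64), filter, scaling, test, probe set choice, covariates and arrays. Figures used matplotlib 3.10.9 in Python 3.11.15.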

Additional observations from a re-analysis of the deposited data

Results flagged for a closer look

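In 5 of 68 groups of 9 values a single array stood far from the others by Dixon's test, which chance does in about 1 of 20 groups. All 5 were in normal prostate. Normal prostate 9 was the highest for Pola1 (9.25, next 7.82), Gins4 (10.13, next 9.59) and Orc6 (8.82, next 8.44). Normal prostate 1 was the lowest for Rfc2 (8.95, next 9.42), and normal prostate 3 the lowest for Pole2 (6.01, next 6.88).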

How the results depend on the processing

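Of the list, 22 to 31 genes rose and 0 fell under every alternative run other than the dim-spike arrays alone (0 rose) and the test against a 2-fold change (2 rose). Leaving out each array in turn gave 27 to 29. Rfc1 lost its call in 20 of 38 alternatives, among them all 3 other scalings, no filter, the exact Wilcoxon test (adjusted p = 0.0832), the replicate block (0.0678), the mean of probe sets (0.0647) and the actin covariate (0.0859); Rfc2 and Rpa3 lost theirs with housekeeping centring (adjusted p = 0.104 and 0.054) and with the actin 3' to 5' ratio as a covariate (0.159 and 0.107), as did Orc6 with that covariate (0.0501). The cause was not tested. Housekeeping centring moved the median of all genes by -0.15.

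Over all genes 1444 rose and 1623 fell, and 1148 to 1591 rose and 1306 to 1820 fell with an array left out. The counts were 774 rising with housekeeping centring, 765 and 869 with the actin ratio, 71 and 40 against a 2-fold change, 2196 and 2664 without normal prostate 9 and tumours 3, 5, 6, 7 and 8, and 0 and 0 in the dim-spike arrays alone, where limma gave 1639 at an unadjusted p under 0.05. In the 5 further lists 33 genes rose and 8 fell, or 32 to 38 and 5 to 9 with an array left out. Counts that moved were 9 rising and 0 falling against a 2-fold change, 0 and 0 in the dim-spike arrays, 4 falling in the bright-spike arrays, and 13 falling with housekeeping centring and without either set of arrays high in seminal vesicle genes. Of the pairs 8 were called, 7 to 8 with an array left out and 0 in the dim-spike arrays, where the smallest adjusted p was 0.154.

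Differences that turned sign were those of 3 genes and 1 pair that had not passed. Cdc45 was -0.06209 with quantile normalization, -0.03569 centred on the 75th percentile, -0.1025 centred on housekeeping genes, -0.08563 with array weights, -0.2655 in the bright-spike arrays and -0.07311 to 0.1873 with an array left out. Orc1 was 0.02763 with array weights, 0.4702 with the mean of probe sets, 0.01265 in the dim-spike arrays, 0.1174 without normal prostate 9 and tumours 3, 5 and 7, and -0.1189 to 0.06211 with an array left out. Rpa1 was -0.08462 in the bright-spike arrays, and Rrm2 against Rrm1 -0.253 in the dim-spike arrays.

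Groups share replicate numbers, but deviations of same-numbered arrays correlated at -0.11 to 0.31 and only 1 of 9 exceeded 0.1. Such values show no pairing by number, yet in whole tissue of mixed content they cannot exclude one. With the replicate number as a block 28 genes of the list rose, 5 genes of the further lists fell and 8 pairs were called.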
